A study of Homo sapiens with 3 samples.

Results

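The claudin, desmosome and tight junction genes were examined in peak lists of histone H3 acetylated at lysine 27 (H3K27ac) and of histone H3 trimethylated at lysine 4 (H3K4me3). The genes were chosen by symbol alone from the protein-coding genes of GENCODE release v44lift37 on hg19: every numbered CLDN, DSC, DSG, PKP, TJP and MARVELD gene, with DSP, OCLN, F11R, CGN, JUP, PPL and EVPL. This gave 48 of 20163 genes. The cells were H2087, an established human lung adenocarcinoma line grown without treatment. Chromatin immunoprecipitation and sequencing (ChIP-seq) was done with 1 library for each mark, from the abcam antibodies ab4729 against H3K27ac and ab8580 against H3K4me3. The study also had an input library of chromatin taken without antibody, which was not analysed here. With n = 1 for each mark there was no replicate and no test, and all values describe these 2 libraries of 1 cell line. RNA data of the study were not analysed here.

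Tight junctions seal the space between epithelial cells near their apical side. Claudins and occludin span the membrane there, and the zonula occludens proteins (such as TJP1) and cingulin (CGN) tie them to actin. Desmosomes lie below and bind the keratin filaments of neighbouring cells together through desmosomal cadherins (desmogleins and desmocollins), plakoglobin (JUP), plakophilins and desmoplakin (DSP). H3K4me3 usually marks active promoters, and H3K27ac marks active promoters and enhancers. By role, the 48 genes were 24 claudins, 5 other tight junction membrane proteins, 4 tight junction scaffolds, 7 desmosomal cadherins, and 8 desmosomal plaque proteins or plakins.

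The promoter sequences below are those of the genes with the highest H3K4me3 value at the start among claudins, other tight junction membrane proteins and scaffolds, followed by a pair of genes without any peak that had the most and the least CpG-rich promoter. Each is the 250 bases before the gene start, 5′ to 3′ in the direction of transcription, from hg19. Capitals mark the GC box GGGCGG, the E-box CACCTG and the TATA box TATAAA on either strand. A motif on the opposite strand reads as its reverse complement, such as CCGCCC for the GC box. CLDN3 is at chr7:73184601-73184850 (minus strand), F11R at chr1:160991134-160991383 (minus), TJP3 at chr19:3708110-3708359 (plus), DSG2 at chr18:29077890-29078139 (plus) and CLDN17 at chr21:31539124-31539373 (minus).
CLDN3: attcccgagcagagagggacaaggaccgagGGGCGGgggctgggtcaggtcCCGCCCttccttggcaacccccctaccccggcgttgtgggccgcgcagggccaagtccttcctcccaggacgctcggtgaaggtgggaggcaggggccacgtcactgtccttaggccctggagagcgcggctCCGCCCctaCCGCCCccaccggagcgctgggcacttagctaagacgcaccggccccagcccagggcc
F11R: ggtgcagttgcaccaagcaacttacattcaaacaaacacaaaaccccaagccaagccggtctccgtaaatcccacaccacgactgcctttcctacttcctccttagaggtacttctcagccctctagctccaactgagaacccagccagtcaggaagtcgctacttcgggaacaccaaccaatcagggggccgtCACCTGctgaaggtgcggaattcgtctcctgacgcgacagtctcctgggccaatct
TJP3: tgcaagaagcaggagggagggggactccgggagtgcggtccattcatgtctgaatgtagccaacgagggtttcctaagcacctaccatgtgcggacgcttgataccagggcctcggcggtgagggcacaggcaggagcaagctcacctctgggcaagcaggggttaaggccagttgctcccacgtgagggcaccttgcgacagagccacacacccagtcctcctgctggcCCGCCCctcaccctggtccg
DSG2: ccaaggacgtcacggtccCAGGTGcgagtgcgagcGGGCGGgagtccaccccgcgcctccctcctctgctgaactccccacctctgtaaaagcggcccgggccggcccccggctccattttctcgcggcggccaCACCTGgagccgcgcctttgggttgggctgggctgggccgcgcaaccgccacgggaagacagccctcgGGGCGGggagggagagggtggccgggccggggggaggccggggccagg
CLDN17: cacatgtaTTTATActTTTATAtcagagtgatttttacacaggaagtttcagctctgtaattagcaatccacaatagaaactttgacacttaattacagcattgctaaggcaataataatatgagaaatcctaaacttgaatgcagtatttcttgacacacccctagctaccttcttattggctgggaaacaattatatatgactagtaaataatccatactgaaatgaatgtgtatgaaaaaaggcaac

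The CLDN3 sequence held 19 CpG and 71.6% GC. DSG2 had 26 CpG and 75.2% GC but no peak of either mark. It lies on chromosome 18, where both lists were sparse as described below, and whether the marks are absent there was not tested. CLDN17 had 0 CpG, 32% GC and 2 TATA matches. The F11R and TJP3 sequences held 10 and 11 CpG. Of the printed sequences of genes with H3K4me3 near the start, only that of TJP3 overlapped an H3K4me3 peak. Those of CLDN3 and F11R lay beside the peaks counted for these genes.

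The highest H3K27ac values among peaks that overlapped no H3K4me3 peak and lay over 1 kb from every protein-coding gene start belonged to a peak inside TJP1 and a peak inside PPL, both with a −log10 q of 5.12. The central 200 bases of the TJP1 peak are shown on the plus strand of hg19, at chr15:30213669-30213868, and held none of the motifs.
TJP1: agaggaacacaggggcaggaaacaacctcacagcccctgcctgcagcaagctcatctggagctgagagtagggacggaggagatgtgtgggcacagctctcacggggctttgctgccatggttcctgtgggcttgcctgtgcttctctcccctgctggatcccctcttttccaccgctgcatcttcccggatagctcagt

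Of 9 words of 32 bases taken every 20 bases from the TJP1 sequence, 0 occurred more than once in the assembly.

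The H3K4me3 list held 18585 peaks and the H3K27ac list 24096. The lists do not give the read depth, so missing peaks and missing reads cannot be told apart. The label of an epithelial lung line was compared with marker genes. Of 9 epithelial markers, 8 had H3K4me3 and 8 had H3K27ac within 1 kb of the start, and all 9 had both marks over the gene or within 10 kb. Of 6 lung lineage markers, NKX2-1 and SFTA3 had both marks at the start and FOXA2 had H3K27ac there. NAPSA had only 1 H3K4me3 peak in its window, and the surfactant genes SFTPB and SFTPC had none. At the outermost annotated start, none of the 4 endothelial, 5 fibroblast and 5 blood cell markers found in the annotation had a peak of either mark within 1 kb. At the start of any transcript, 1 fibroblast marker had each mark and 1 blood cell marker had H3K4me3, and windows around 2, 1 and 4 of them held a peak.

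Counted together, the 48 junction genes were marked about as often as protein-coding genes in general. The start of a gene was its most upstream annotated base, and it was taken as marked where a peak reached to within 1 kb. H3K4me3 was at the start of 15 genes (31.2%, exact Clopper-Pearson 95% interval 18.7 to 46.3), against 38.2% of all protein-coding genes. H3K27ac was at the start of 11 genes (22.9%, 12.0 to 37.3), against 23.6%. Both marks were at the start of 6 genes (12.5%, 4.73 to 25.2), against 18.6%. Over the gene and 10 kb on each side, the window used from here on, 27 genes had H3K4me3 (56.2%, background 56.8%) and 24 of 48 had H3K27ac (50%, background 48.9%). Both marks were in 22 windows (45.8%, background 41.0%) and no peak was in 19 (39.6%, 25.8 to 54.7, background 35.3%). Every one of these intervals contained its background. The intervals cover counting error only and treat genes as independent, which neighbouring genes are not.

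The counts at starts depended on which start was taken. At the start of any annotated transcript, 21 genes had H3K4me3 (background 45.4%) and 17 had H3K27ac (background 30.7%). At the start of the canonical transcript the counts were 20 (background 41.3%) and 13 (background 25.2%). CLDN4, CLDN10, CLDN12, CGN, OCLN and PPL were without H3K4me3 at the outer start and had it at the canonical start, whereas CLDN16 had it at the outer start only.

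**Figure D1:**
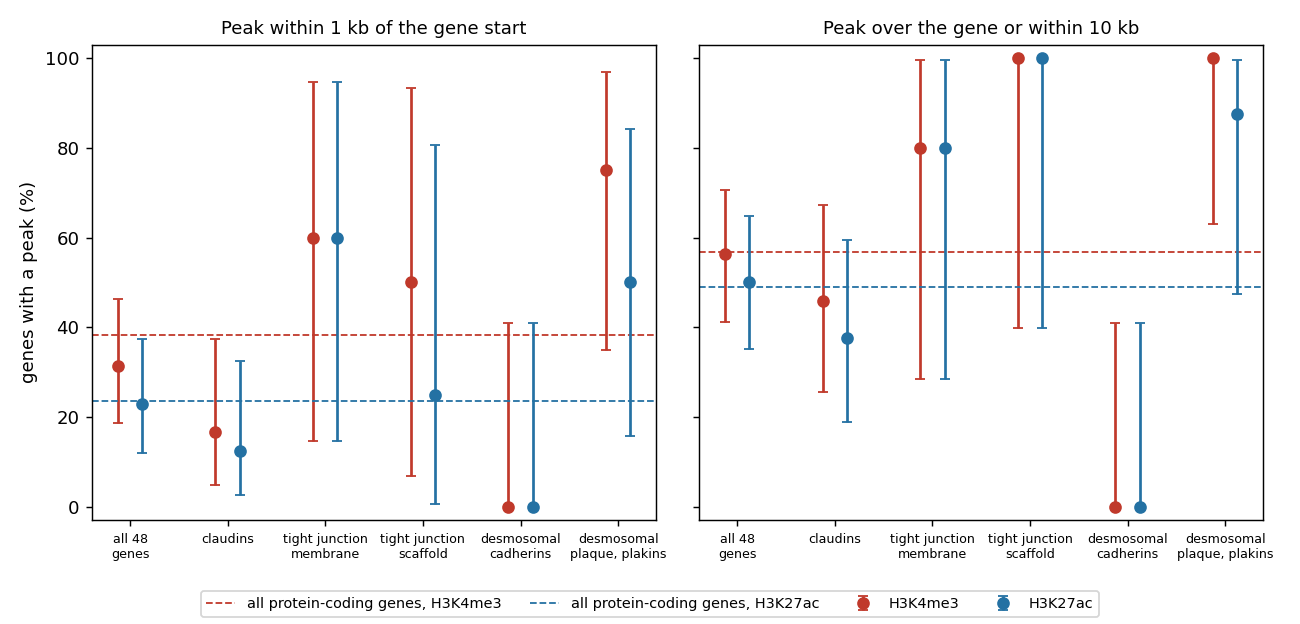
Share of genes with a peak (vertical axis, %) for all 48 junction genes and each role, at the gene start (left) and over the gene or within 10 kb (right). Points are shares, bars exact 95% intervals over genes, and dashed lines the shares of all protein-coding genes; plaque proteins and plakins had H3K4me3 at 6 of 8 starts and the desmosomal cadherins at 0 of 7.

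The roles differed more than the total did. Plaque proteins and plakins had H3K4me3 at 6 of 8 starts and H3K27ac at 4 of 8, against 38.2% and 23.6% of all protein-coding genes. All 8 had a peak in the window, where 35.3% of all protein-coding genes had none. The other tight junction membrane proteins had H3K4me3 at 3 of 5 starts and H3K27ac at 3 of 5, and the scaffolds had them at 2 of 4 and 1 of 4. All 9 genes of these 2 roles had a peak in the window. Claudins had H3K4me3 at 4 of 24 starts (16.7%, 4.74 to 37.4) and H3K27ac at 3 of 24 (12.5%, 2.66 to 32.4), and 12 of 24 had no peak in the window. The 7 desmosomal cadherins had no peak of either mark (0 of 7, which allows a share of up to 41.0%). At the start, the intervals of all 5 roles overlapped for each mark. In the window, those of the cadherins (0 to 41.0%) and of the plaque proteins and plakins (63.1 to 100%) did not overlap for H3K4me3, and neither did those for H3K27ac (0 to 41.0% and 47.3 to 99.7%). These intervals take the 7 cadherins as independent, but the genes are neighbours in a single cluster on chromosome 18, described below. No difference between roles was tested. The claudins were also short, with a median length of 6.04 kb against 27.2 kb for all protein-coding genes, and a short gene has a smaller window in which a peak can fall. The median was 47.5 kb for plaque proteins and plakins and 97.9 kb for scaffolds, whose windows are larger. It was 41.1 kb for the cadherins and 26.1 kb for the other membrane proteins. The part of length in the counts by role was not tested.

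**Figure D2:**
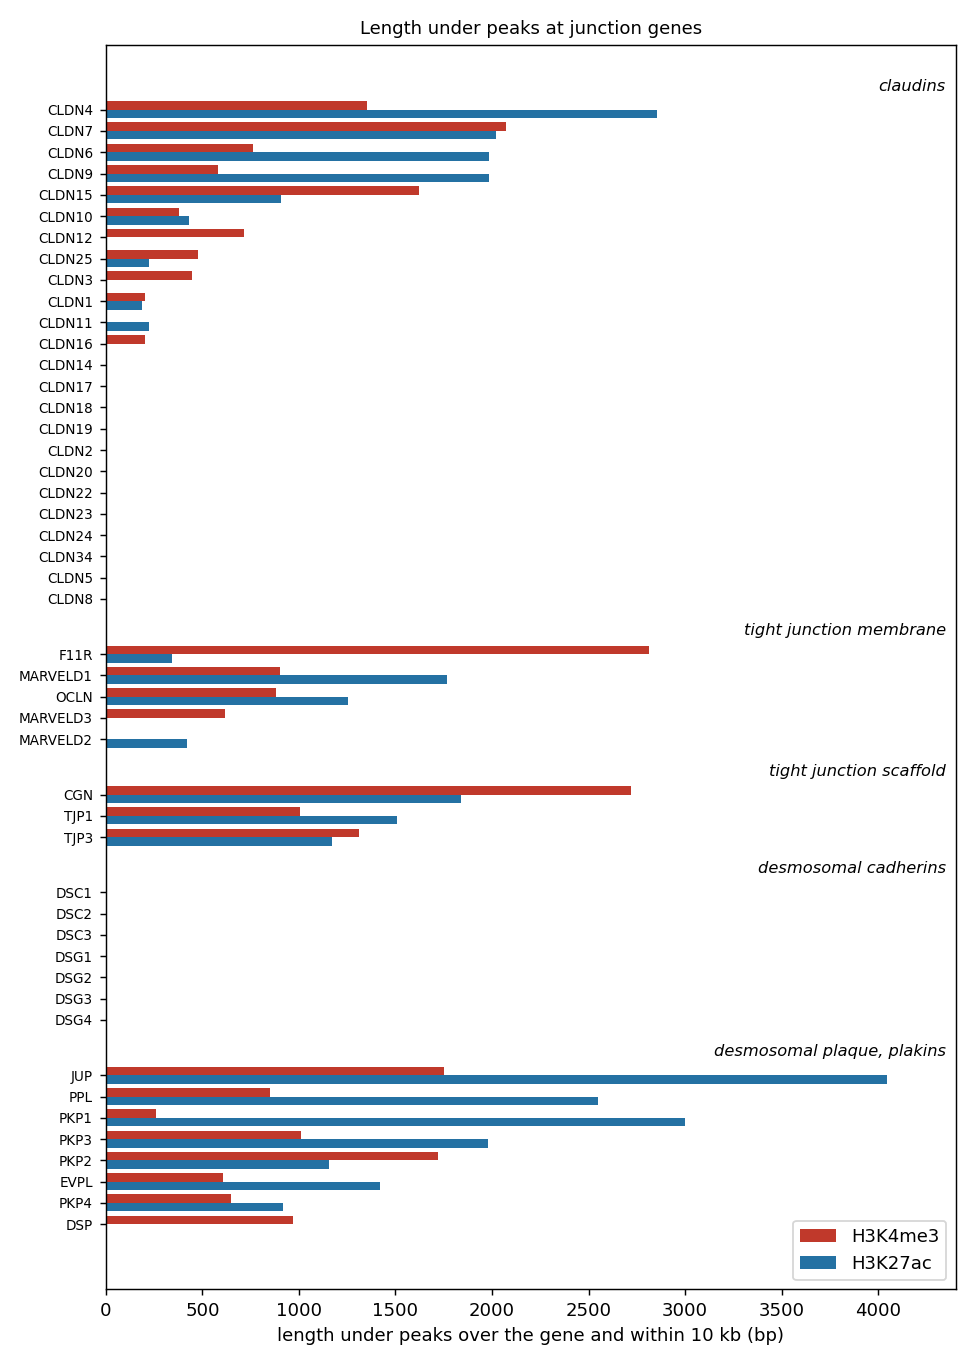
Length under H3K4me3 and H3K27ac peaks (horizontal axis, bp) over junction genes and 10 kb on each side, grouped by role. JUP had the longest H3K27ac length, 4045 bp, and F11R the longest H3K4me3 length, 2812 bp; 12 claudins and all 7 desmosomal cadherins had none.

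Among the plaque proteins, the plakophilin gene PKP2 carried the highest H3K4me3 value of any junction gene. Its start lies at position 33049732 of chromosome 12 on the minus strand. The H3K4me3 peak at chr12:33048636-33049775 was 1140 bp wide, held 4 summits and covered the start and exon 1 with a −log10 q of 21.2, above 99.9% of the H3K4me3 list. A second H3K4me3 peak of 579 bp lay 497 bp upstream (−log10 q 2.47). H3K27ac at chr12:33049286-33049703 covered part of exon 1 with a −log10 q of 10.3, above 99.7% of its list, and the other H3K27ac peaks lay 4282 bp and 53504 bp into the gene in introns 1 and 5.

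PKP3, another plakophilin, had both marks along its 5′ end. H3K4me3 peaks lay 493, 1048, 1671 and 2589 bp into the gene, with −log10 q of 5.42, 3.98, 1.79 and 4.79. Each overlapped an H3K27ac peak, and the widest of these, chr11:394887-395511 in intron 1, had a −log10 q of 6.98. The fifth H3K27ac peak lay 2391 bp upstream. PKP4 had 651 bp of H3K4me3 from 23 bp after its start (chr2:159313487-159314137, −log10 q 2.97) and an H3K27ac peak overlapping it (159314094 to 159314382, 3.55), within 1 kb of the start of CCDC148 as well. PKP1 had neither mark at its start. It had 10 H3K27ac peaks, the most of any junction gene, totalling 2999 bp, of which 3 lay 7545 to 9130 bp upstream, 1 in intron 1 and 6 in intron 2. The widest of them, chr1:201259278-201259888 in intron 1, overlapped the only H3K4me3 peak of PKP1 (−log10 q 1.82).

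JUP encodes plakoglobin, which is found in desmosomes and in adherens junctions. It had 5 H3K4me3 and 8 H3K27ac peaks, and the longest H3K27ac length of the 48 genes, 4045 bp. The widest H3K27ac peak of any junction gene, 1119 bp at chr17:39940997-39942115 in intron 1, began 1068 bp from the outer start and 848 bp from the canonical start, so JUP was not counted among the genes with H3K27ac at the outer start. It overlapped 2 H3K4me3 peaks. H3K4me3 at chr17:39942762-39942944 lay in exon 1 (−log10 q 3.71). The highest H3K4me3 value of JUP, 5.69, was farther in, at chr17:39928773-39929041 in intron 1, where it overlapped H3K27ac. That peak lay 14142 bp from the outer start and 252 bp from the nearest transcript start. The 4 H3K27ac peaks upstream of JUP lay 1861 to 6789 bp from the start and overlapped no H3K4me3 peak, with −log10 q of 3.54 to 4.29.

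DSP, whose product desmoplakin links the plaque to keratin, had H3K4me3 in exon 1 at chr6:7541884-7542083 (−log10 q 4.60) and no H3K27ac in its window. The nearest H3K27ac peak was 141.4 kb from the gene's nearer edge. Its other H3K4me3 peak lay beyond the gene, within 1 kb of the start of SNRNP48. The plakins periplakin (PPL) and envoplakin (EVPL) differed from each other. EVPL had 606 bp of H3K4me3 at chr17:74022693-74023298 (−log10 q 2.26), overlapped by 2 H3K27ac peaks with −log10 q of 2.45 and 3.40. PPL had neither mark at its outer start, and 8 H3K27ac peaks totalling 2547 bp. At its canonical start, 23593 bp inside the gene, H3K4me3 at chr16:4986110-4986754 (−log10 q 2.49) overlapped H3K27ac at 4986225 to 4986492 (3.83). Between 11101 and 17602 bp from the outer start lay 4 further H3K27ac peaks, with −log10 q of 1.39 to 5.12.

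**Figure D3:**
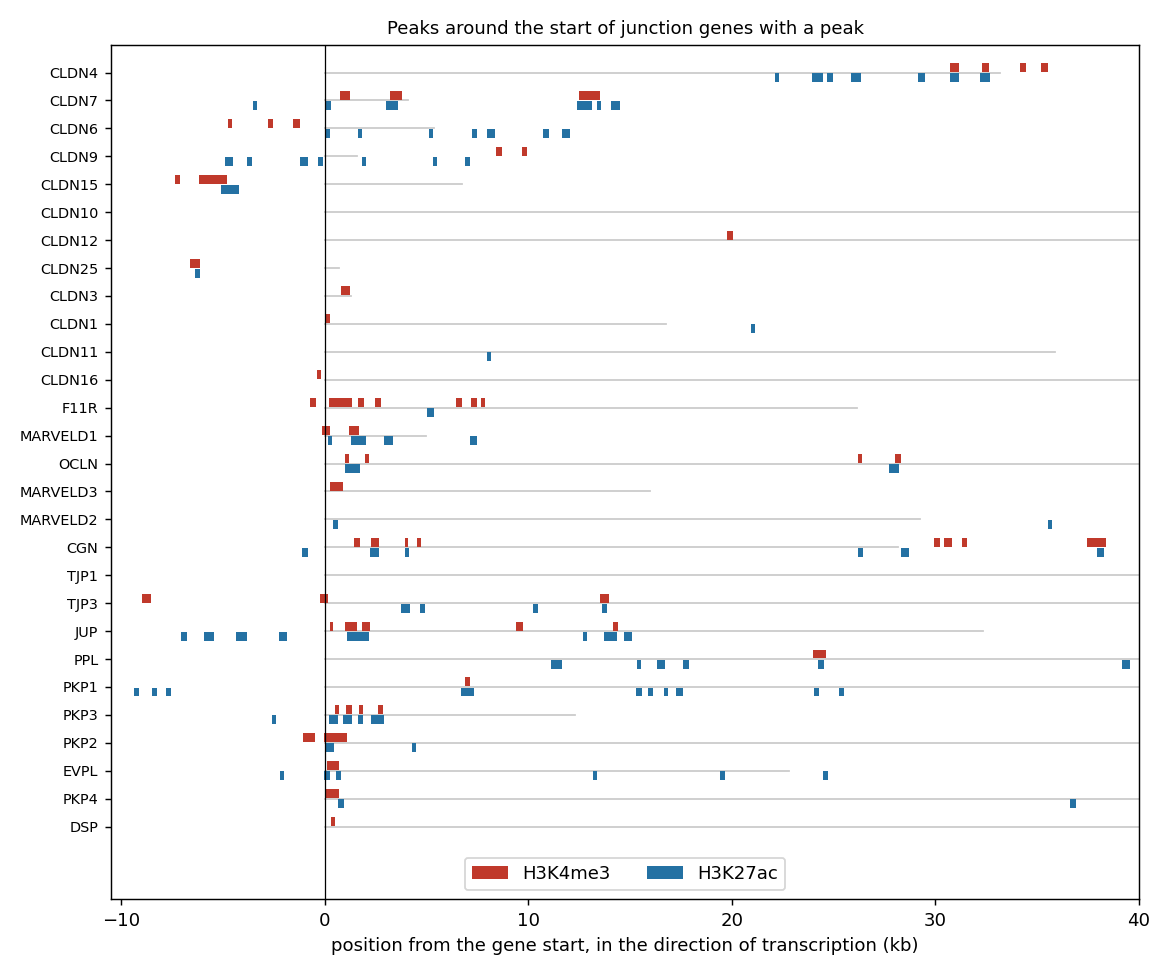
Peaks of both marks along junction genes with a peak, from 10 kb before to 40 kb after the outer gene start (horizontal axis, kb, in the direction of transcription; grey lines are genes). H3K4me3 gathers near the start in PKP2, EVPL, PKP4 and F11R, whereas CLDN4 is marked from 22 kb on and the peaks of CLDN10 and TJP1 lie beyond the plotted range.

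Among the tight junction membrane proteins, F11R, OCLN and MARVELD3 had more H3K4me3 than H3K27ac peaks, and MARVELD1 and MARVELD2 had fewer. F11R encodes junctional adhesion molecule A, an immunoglobulin-type adhesion protein. It had 7 H3K4me3 peaks totalling 2812 bp, and the widest, 1111 bp at chr1:160989794-160990904 over exon 1, had a −log10 q of 6.06, above 90.3% of the list. A peak of 307 bp lay 415 bp upstream (1.72), and 5 peaks in intron 1 lay 1623 to 7691 bp from the start with −log10 q of 2.38 to 4.58. Its only H3K27ac peak, chr1:160985746-160986088 in intron 1 (1.99), overlapped none of them. F11R shares these positions with a readthrough gene, ENSG00000270149, and peaks cannot be divided between them.

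Occludin (OCLN) and tricellulin (MARVELD2), a protein of the points where 3 cells meet, lie next to each other on chromosome 5. OCLN had H3K27ac of 735 bp at chr5:68789092-68789826 in intron 1 (−log10 q 3.71), starting 973 bp from its outer start. The H3K4me3 peak inside it (68789122 to 68789313, −log10 q 1.32) began at 1003 bp and so missed the 1 kb limit. A similar overlap of the marks lay in intron 4, with H3K4me3 at chr5:68816152-68816406 (4.28) and H3K27ac at 68815815 to 68816332 (2.82). MARVELD2 had only H3K27ac, of 237 bp at chr5:68711317-68711553 in intron 1 and of 184 bp beyond the gene, both with a −log10 q of 2.22. MARVELD3 had only H3K4me3, of 617 bp over exon 1 at chr16:71660331-71660947 (3.80). MARVELD1 had both marks at its start, H3K4me3 at chr10:99472804-99473183 (3.16) and H3K27ac at 99473095 to 99473300 (1.39), and a wider overlap from 1165 bp into the gene, with 524 bp of H3K4me3 (2.98) and 727 bp of H3K27ac (3.52).

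Among the scaffolds, TJP3 (ZO-3) had H3K4me3 at the outer start and CGN had H3K27ac. The TJP3 peak over the start lay at chr19:3708121-3708516 (−log10 q 2.97). The highest H3K4me3 value of TJP3 was in intron 1, 13503 bp from the start and 128 bp from the start of another TJP3 transcript, where H3K4me3 at chr19:3721863-3722339 (7.36) overlapped H3K27ac at 3721970 to 3722241 (2.82). In CGN, H3K27ac at chr1:151481876-151482149 lay 837 bp upstream (5.17), and in intron 1 the marks overlapped at 2250 and 3932 bp from the start. The 3 highest H3K4me3 values in the CGN window lay in TUFT1, the next gene, led by 928 bp at chr1:151520429-151521356 (8.01).

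TJP1 (ZO-1), the longest of the 48 genes at 269.5 kb, had 3 H3K4me3 and 4 H3K27ac peaks and none within 1 kb of any of its 12 annotated transcript starts. The H3K4me3 peaks were in intron 18, intron 1 and upstream of the canonical transcript (chr15:30014868-30015073, 30111224 to 30111545 and 30136276 to 30136755), with −log10 q of 4.35, 1.41 and 2.45. H3K27ac at chr15:30213649-30213887 was the peak printed above, and the others lay in intron 24 and, for 2 of them, beyond the 3′ end. No H3K27ac peak of TJP1 overlapped an H3K4me3 peak.

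Among the claudins, marks at the start were sparse and several lay elsewhere in or near the gene. CLDN3 and CLDN4, neighbours on chromosome 7, encode barrier-forming claudins. CLDN3 had 1 peak, H3K4me3 of 448 bp at chr7:73183349-73183796 (−log10 q 3.72), which lay 804 bp downstream of the start in its only exon, and no H3K27ac. CLDN4 had no peak at its outer start. At its canonical start, 31454 bp downstream, H3K4me3 at chr7:73244581-73245020 (2.93) and 73246165 to 73246492 (6.39) each overlapped H3K27ac, at 73244599 to 73245033 (2.82) and 73246060 to 73246561 (3.55). A further 5 H3K27ac peaks lay between the starts, 22112 to 29164 bp from the outer start, without H3K4me3, with −log10 q of 1.89 to 4.0. Further H3K4me3 peaks lay beyond the gene, 34152 and 35208 bp from the outer start (3.76 and 2.49). The H3K27ac length of 2854 bp was the longest among claudins.

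CLDN7 was the only claudin with both marks at its outer start, on different sites. H3K27ac at chr17:7167006-7167235 (−log10 q 3.05) lay 67 bp from the start and H3K4me3 at 7166057 to 7166545 (2.97) lay 757 bp from it, also within 1 kb of the start of ENSG00000262302. The marks overlapped further on, over exons 2 to 4, with H3K4me3 at chr17:7163517-7164095 (1.72) and H3K27ac at 7163714 to 7164306 (3.55). The highest H3K27ac value in any junction gene window, 10.95 at chr17:7154170-7154925, lay 12377 bp from the CLDN7 start and within 1 kb of the starts of CTDNEP1 and ELP5. It belongs to the window of CLDN7 by distance and to those promoters by position.

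CLDN6 and CLDN9 stand side by side on chromosome 16 and share all 7 H3K27ac peaks of their windows, 1986 bp in all. For CLDN9 the nearest was chr16:3062590-3062846, 78 bp upstream (−log10 q 2.82), with another 807 bp upstream (1.40). For CLDN6, H3K27ac at chr16:3069814-3070077 covered the start (1.55) and also lay in TNFRSF12A. The peak 53 bp from the canonical CLDN6 start lay within 1 kb of the TNFRSF12A start, and these peaks cannot be divided between the genes. Neither CLDN6 nor CLDN9 had H3K4me3 within 1 kb of the start, and none of the 7 H3K27ac peaks overlapped an H3K4me3 peak. The 3 H3K4me3 peaks in the CLDN6 window lay 1239 to 4581 bp upstream, in TNFRSF12A, HCFC1R1 and THOC6. CLDN1, the claudin of the skin barrier, and CLDN16, known for magnesium transport in the kidney, start side by side in opposite directions, at 190040235 and 190040330 of chromosome 3. An H3K4me3 peak of 201 bp at chr3:190039966-190040166 (3.08) in exon 1 of CLDN1 was counted for both. CLDN1 also had H3K27ac of 186 bp beyond its 3′ end, and CLDN16 had none.

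CLDN10 had both marks at its canonical start, 119116 bp inside the annotated gene. H3K4me3 at chr13:96204984-96205362 lay in exon 1 of that transcript (−log10 q 3.76) and H3K27ac followed in intron 1 at 96205486 to 96205698 (2.82) and 96208357 to 96208572 (4.32). CLDN12 had H3K4me3 at its canonical start (chr7:90032818-90033087, 4.60) and no H3K27ac. CLDN11, a claudin of myelin and testis, had 1 H3K27ac peak in intron 2 (2.16). The peaks counted for CLDN15 and CLDN25 lay in other genes. For CLDN15 they lay in FIS1, 4213 bp upstream or farther. For CLDN25 they lay at the start of ZW10, 6155 bp upstream, with a −log10 q of 12.7 for H3K4me3 that was above 99.4% of the list.

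The 12 claudins without a peak in the window were CLDN2, CLDN5, CLDN8, CLDN14, CLDN17, CLDN18, CLDN19, CLDN20, CLDN22, CLDN23, CLDN24 and CLDN34. They include CLDN18, known from lung and stomach epithelium, CLDN5, known from blood vessel endothelium, and CLDN2, which forms cation pores. The distance from the gene's nearer edge to the nearest peak of either mark was shortest for CLDN19 (26.3 kb), CLDN5 (28.0 kb), CLDN14 (30.9 kb), CLDN18 (34.4 kb) and CLDN20 (39.1 kb), and it ran from 785 kb for CLDN2 to 3511 kb for CLDN34 among CLDN2, CLDN8, CLDN17, CLDN23 and CLDN34.

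The 7 desmosomal cadherins, DSC1 to DSC3 and DSG1 to DSG4, form a cluster of 559.6 kb at chr18:28569331-29128971. Neither list held a peak in the cluster or within 1 Mb of it, and the 8 other protein-coding starts in that stretch were unmarked. Within 5 Mb there were 0 H3K4me3 and 2 H3K27ac peaks, and 0 of 34 other starts had either mark. The nearest H3K4me3 peaks lay 6974 kb to the left (chr18:21595001-21595211) and 16937 kb to the right, 592 bp from the start of CTIF. The nearest H3K27ac peaks lay 4510 kb to the left and 3795 kb to the right. The desmogleins and desmocollins include genes of stratified epithelium (DSG1, DSG3, DSC1, DSC3) and the more widely used DSG2 and DSC2, and the lists did not tell them apart.

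Chromosome 18 as a whole was sparse in both lists. It held 68 H3K4me3 peaks (0.366% of the list) and 82 H3K27ac peaks (0.340%) against 1.32% of protein-coding genes. H3K4me3 was at 29 of its 266 starts (10.9%, 7.42 to 15.3) and H3K27ac at 16 (6.02%, 3.48 to 9.58). The absence of peaks from the desmosomal cadherins and the low number of peaks on their chromosome cannot be told apart. Whether the lists as used here are complete for the chromosome, and whether the line has lost material from it, was not tested. Without the 7 cadherins, 15 of 41 genes had H3K4me3 at the start (36.6%) and 11 had H3K27ac (26.8%), and 27 (65.9%) and 24 (58.5%) had them in the window. For protein-coding genes off chromosome 18 these shares were 38.6%, 23.8%, 57.3% and 49.4%.

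The surroundings of the other genes without a peak were of both kinds. Over all 48 genes, the share of other gene starts within 1 Mb that had H3K4me3 had a median of 47.1% around the 29 genes with a peak and 0% around the 19 without. Of those 19 genes, 12 had no neighbouring start with either mark: the 7 desmosomal cadherins with CLDN2, CLDN8, CLDN17, CLDN23 and CLDN34. The other 7, CLDN5, CLDN14, CLDN18, CLDN19, CLDN20, CLDN22 and CLDN24, were unmarked among marked neighbours. Around CLDN18, 10 of 13 other starts had H3K4me3, and around CLDN5, 24 of 41. TJP1 was the only gene with a peak that had no marked neighbour, with 11 starts around it. The part of the surroundings in these counts was not tested.

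**Figure D4:**
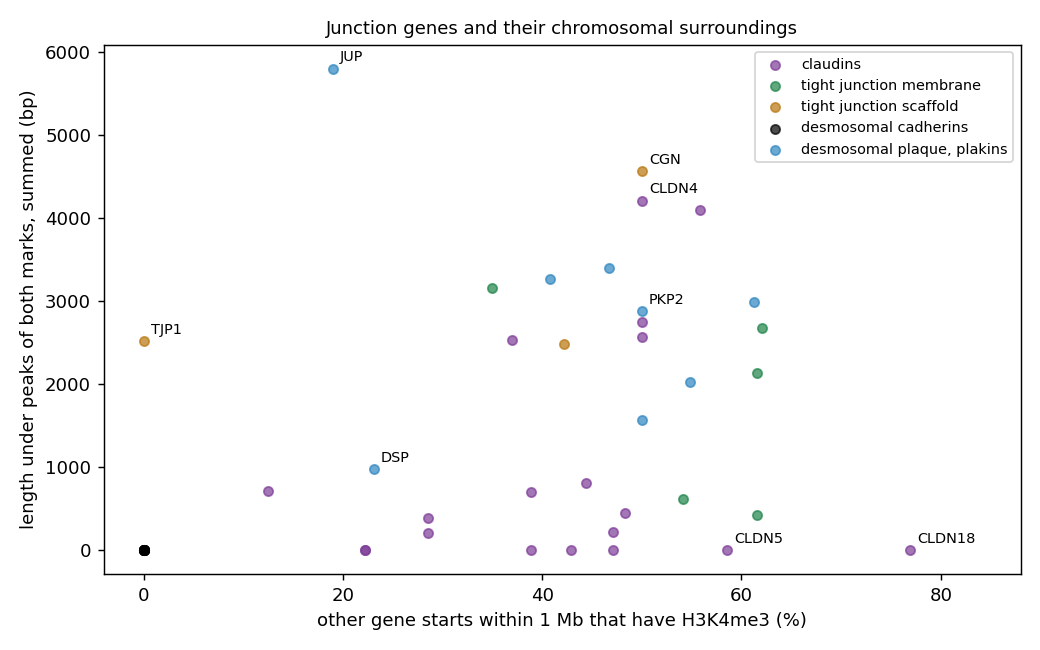
Length under peaks of both marks for junction genes (vertical axis, bp, summed) against the share of other gene starts within 1 Mb that have H3K4me3 (horizontal axis, %), coloured by role. The 7 desmosomal cadherins and 5 claudins lie together at 0 and 0, whereas CLDN5 and CLDN18 have no peak among neighbours marked at over 50%.

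Taken by peaks, the windows of the 48 genes held 68 distinct H3K4me3 peaks of 27771 bp and 97 distinct H3K27ac peaks of 33896 bp, of which 3 and 7 lay in the windows of 2 junction genes. Their median −log10 q was 3.03 for H3K4me3 and 2.82 for H3K27ac, against 2.97 and 2.65 in the whole lists. A −log10 q of at least 5 was reached by 10 H3K4me3 peaks (14.7%, whole list 16.7%) and 7 H3K27ac peaks (7.22%, whole list 8.84%). The median width was 325 bp for H3K4me3 and 279 bp for H3K27ac, against 305 and 284 bp. By these medians and shares the peaks resembled their lists. The 2 highest H3K4me3 values lay at the starts of PKP2 and ZW10, and the 2 highest H3K27ac values at those of CTDNEP1 and ELP5 and of PKP2.

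**Figure D5:**
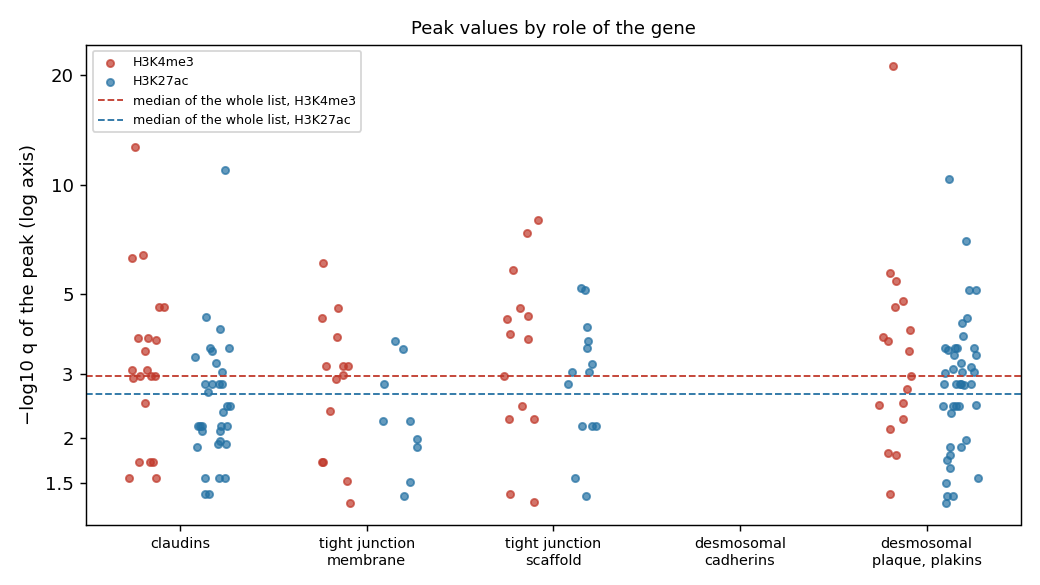
The −log10 q of peaks in the windows of junction genes (vertical log axis) by role and mark, with a peak shared by 2 genes drawn for each of them and dashed lines at the medians of the whole lists. The highest H3K4me3 value is 21.2 at PKP2 and the highest H3K27ac value 10.95 in the window of CLDN7.

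Overlap between the marks was seen in 27 of the 68 H3K4me3 peaks (39.7%, 28.0 to 52.3, whole list 31.1%) and in 28 of the 97 H3K27ac peaks (28.9%, 20.1 to 39.0, whole list 24.0%). A protein-coding gene start lay within 1 kb of 25 H3K4me3 peaks (36.8%) and 18 H3K27ac peaks (18.6%). Of the H3K4me3 peaks, 17 touched an exon of the canonical transcript, 23 lay in its introns, 10 elsewhere in the gene and 18 outside. Of the H3K27ac peaks, 10 touched an exon, 38 lay in introns, 20 elsewhere in the gene and 29 outside, with each shared peak placed by the gene that comes earlier in alphabetical order. The start of a gene other than the one counted lay within 1 kb of 10 H3K4me3 and 8 H3K27ac peaks, so the window counts include promoters of neighbours. Whole-list shares were not computed for these placements by start, exon and intron. Whether the placements differ from those of all peaks therefore cannot be told.

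The median length under peaks per gene was 320 bp for H3K4me3 and 93.0 bp for H3K27ac, against 252 bp and 0 bp over all protein-coding genes. Among genes with a peak of either mark it was 853 bp and 1166 bp for the 29 junction genes, and 602 bp and 409 bp for 13048 genes in all. A median is given here as a description, since the 29 were selected by having a peak.

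Taken at the outer start, promoters of the junction genes were less rich in CpG than those of all genes. Over the 300 bases from 250 before to 50 after the outer start, the median GC content was 54.0% and the median observed to expected CpG ratio 0.477 for the 48 genes, against 60.3% and 0.694 for 20140 promoters. The ratio was 0.595 for the 15 genes with H3K4me3 at the start and 0.352 for the 33 without. Over all promoters the corresponding values were 0.835 and 0.468, so that in both sets the marked promoters had the higher ratio. At canonical starts, the values were 0.779 for 20 marked and 0.411 for 28 unmarked junction genes, against 0.873 and 0.583 over all promoters. By role, the median ratio at the outer start was 0.335 for claudins, 0.389 for desmosomal cadherins and 0.532 for plaque proteins and plakins. It was 0.584 for scaffolds and 0.595 for the other tight junction membrane proteins. Medians by role were not computed at canonical starts.

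Exact motif matches on both strands were counted in the same 300 bases around the outer start. The E-box CACCTG was in 18 promoters (37.5%, all promoters 21.6%), among them CLDN3, F11R, JUP and DSG2. The GC box GGGCGG was in 19 (39.6%, all promoters 52.2%) and TATAAA in 4, CLDN4, CLDN8, CLDN17 and PPL (8.33%, all promoters 10.9%). The AP-1 motif TGANTCA was in 3 (6.25%, all promoters 6.37%) and the TEAD motif GGAATG in 3 (6.25%, all promoters 12.8%). The grainyhead motif AACCNGTT was in 0 of 48, against 1.73% of all promoters. A match is a short run of letters and says nothing of binding, and none of these shares was tested. Motif shares were not computed at canonical starts, where the matches of several genes differed. There, CGN, JUP and PPL had a GC box that they lacked at the outer start, and CLDN16 and DSC3 had none. CLDN4 and PPL had no TATAAA and JUP had no E-box. CGN had a grainyhead match, CLDN4 had AP-1 matches and PPL had none.

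A list of 35 other junction genes, mostly of adherens and tight junctions and of cell polarity, was counted in the same way. It was chosen with earlier results of these data known, so its shares are a description and cannot show enrichment. H3K4me3 was at 21 of the 35 starts (60.0%, 42.1 to 76.1), H3K27ac at 14 (40.0%, 23.9 to 57.9) and both at 10 (28.6%, 14.6 to 46.3), against 38.2%, 23.6% and 18.6% of all protein-coding genes. Either mark was in the window of 29 genes, including CDH1, which encodes E-cadherin and had both marks at the start with 5 H3K4me3 and 10 H3K27ac peaks in all, and NECTIN4, with 6 and 9. The polarity gene PARD3 had 22 H3K4me3 and 77 H3K27ac peaks, covering 8064 and 30539 bp. Both peak numbers and the H3K27ac length equalled the maxima over all protein-coding genes, so PARD3 is not typical of the list. Gene length was not taken into account here. No peak was in the windows of AMOT, CTNNB1, JAM2, JAM3, PERP and TMEM47 (17.1%, background 35.3%). The interval for H3K4me3 at the start overlapped that of the 48 junction genes (18.7 to 46.3), and no difference was tested.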

How the data were processed

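ChIP-seq peak lists of H3K27ac and H3K4me3 in H2087 cells were analysed, with 1 library per mark. Per the submitters' processing notes, the authors used bcl2fastq 1.8.4, Bowtie 1.1.1, SAMtools 1.2, Picard 1.118, MACS2 2.1.0 and ChIPseeker 1.6.6 on hg19. The deposited lists give intervals and, without a header, a value that was read as the −log10 q (q-value) the authors' peak caller gave each summit, because its minimum was 1.303 and 1.306 against 1.301 for a q of 5%. The threshold and the treatment of duplicate reads are not given in the sources used here. The value ranks peaks within a list and grows with depth, which is unknown.

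Distinct intervals were taken as peaks with their highest −log10 q and converted to 1-based positions. No peak passed a chromosome end in GRCh37. Gene models came from GENCODE v44lift37 and sequences from the GRCh37 assembly. Counts over the genes were set beside the same counts over all protein-coding genes, with exact Clopper-Pearson 95% intervals and no test (Python 3.11.15, pandas 2.3.3, SciPy 1.17.1), and the counting was checked on simulated peaks. The genes named with positions were, per role, the 3 with the highest H3K4me3 −log10 q at the start and the 3 with the greatest H3K27ac length, and the others are given for completeness. A gene and a pair of sequences that fall under these rules are counted but not reported here, and the gene is not drawn in the plots of single genes. The remaining peaks are given as distances or only within counts and lengths. Roles, lists and members were chosen with earlier results of these data known. One endothelial marker of 5 was not found under its symbol as a protein-coding gene.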

Additional observations from a re-analysis of the deposited data

How the results depend on the processing

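Each of 9 results was recomputed under the alternatives that bear on it, 54 values in all. Of these, 31 stayed within a factor of 1.5 and 23 did not. With peaks of −log10 q of at least 5 only, H3K4me3 was at 3 starts and in 9 windows, H3K27ac was at 3 starts and in 6 windows, both marks were at 2 starts, the peaks numbered 10 for H3K4me3 and 7 for H3K27ac, and both median lengths were 0 bp. With peaks at or above the median −log10 q of each list, 41 H3K4me3 and 55 H3K27ac peaks were left, with median lengths of 100.5 and 0 bp. At the start of any transcript, H3K27ac was at 17 genes and both marks at 14. Both marks were at 11 starts with a limit of 3 kb and at 10 canonical starts. Both median lengths were 0 bp over the gene body only, and 0 bp without peaks near the start of another gene. Without the desmosomal cadherins they rose to 579 bp for H3K4me3 and 343 bp for H3K27ac. The canonical start and the omission of the cadherins were chosen after seeing the data. No paired analysis was possible because there was no replicate to pair, and for that reason no library could be left out. The depth of the libraries is unknown, which limits every statement on a missing peak.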
